A study of Mus musculus with 29 samples.

Results

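The origin recognition complex (ORC) is the protein complex that binds replication origins, and its 6 subunits are encoded by Orc1, Orc2, Orc3, Orc4, Orc5 and Orc6. These 6 genes were taken by symbol from the 30025 genes of the expression table. All 6 passed the filter on low values, as did 15409 genes in all, with an FPKM (fragments divided by exon length and by the size of the library) of at least 1 in at least 4 libraries.

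ORC marks origins on chromatin and, together with Cdc6 and Cdt1, loads the Mcm2 to Mcm7 helicase, the step called licensing. Kinases, Cdc45 and the GINS complex later turn the loaded helicase into an active one when S phase begins. Most hematopoietic stem cells (HSC) are quiescent and divide rarely, while multipotent progenitors (MPP) cycle more often, and cells that have left the cycle carry few loaded helicases.

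RNA-Seq was made from sorted bone marrow cells of mice that carry 1 intact copy of the 5A3 interval and 1 copy deleted in the germ line (5A3+/del) and of their wild type (WT) littermates, all of strain C57BL/6J and 12.42 to 13.85 weeks old. The populations were CD150hi HSC, CD150lo HSC and CD150neg cells, the last labelled HSC in the sample labels and called MPP by the study and here, all within the c-kit+ lineage− Sca-1+ CD41− CD48− gate. Each genotype and population had 5 libraries, 1 per mouse, except 4 libraries for 5A3+/del CD150neg MPP, which gave 29 libraries from 10 mice. Replicate numbers link the libraries of a mouse across populations, and the same number in both genotypes stands for different mice.

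The deletion spans about 2 Mb of chromosome 5. It was made with Cre and loxP in embryonic stem cells and is present in every cell of the animal, so an effect that arises outside the sorted cells cannot be told apart from one within them. Orc5 is 1 of several genes in the interval, and the groups therefore differ by all of these genes together. The 5 other ORC genes lie on chromosomes 1, 2, 4 and 8.

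Fragments per library ranged from 21229496 to 38797613, with a median of 26967124. Over all libraries, Orc5 was covered by 216 to 1097 fragments, Orc1 by 209 to 780, Orc6 by 201 to 807, Orc2 by 380 to 1612, Orc4 by 1091 to 2802 and Orc3 by 2701 to 5094. Each count lay above the floor of 3 fragments. Unless stated otherwise, levels are FPKM quantile normalized over the 29 libraries on the log2(FPKM + 1) scale and transformed back, and log2 fold changes are on that log2 scale. The added 1 makes the change of a weakly expressed gene look smaller than it is.

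The sort labels were checked against marker genes. In WT mice the CD150 gene Slamf1 fell in level from CD150hi HSC (14.4 ± 1.04 normalized FPKM, SD, n = 5) through CD150lo HSC (1.59 ± 0.718, n = 5) to CD150neg MPP (0.142 ± 0.0314, n = 5). Flt3, a receptor of lymphoid-primed progenitors, ran the other way, at 2.87 ± 0.72 (n = 5), 29.7 ± 6.21 (n = 5) and 50.7 ± 8.22 (n = 5). The list for the sorted cells and their gate holds 10 genes, among them Cd48, which marks cells that the CD48− gate leaves out and was at 0.341 ± 0.248 (n = 5), 2.8 ± 1.75 (n = 5) and 6.29 ± 3.02 (n = 5) in the same order. All 10 passed the filter, their summed FPKM as deposited was 555 to 1040 per library, and Hlf was the most abundant at 164 to 303. By genotype limma called none of the 10 in any population. Those with an unadjusted limma p under 0.05 in CD150hi HSC were Ly6a (log2 fold change 0.613), Cd34 (0.569) and Procr (0.352). In CD150lo HSC they were Ly6a (0.549), Kit (0.315) and Slamf1 (−0.458), and in CD150neg MPP Ly6a (0.404).

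Markers of other cells were listed as well. The 5 granulocyte and monocyte markers summed to 173 to 1030 FPKM per library, with Lyz2 the highest by median at 148 to 254, and Ctsg, a neutrophil protease gene, had a median of 0. WT replicate 1 stood apart, with S100a8, a granulocyte marker, at 737 FPKM in CD150lo HSC, and S100a8 exceeded Lyz2 in its CD150hi and CD150lo libraries alone. In CD150hi HSC S100a8 was at 478, 146, 16.8, 54.9 and 152 FPKM in WT replicates 1 to 5 and at 0, 62.5, 7.22, 8.17 and 11.3 in 5A3+/del. In CD150hi HSC the median summed level of this list was 322 FPKM in WT (n = 5) and 200 in 5A3+/del (n = 5). The CD150lo HSC medians of the list were 279 (WT, n = 5) and 301 (5A3+/del, n = 5), and those of CD150neg MPP were 223 (n = 5) and 227 (n = 4). By genotype S100a8 had log2 fold changes of −3.353 (limma adjusted p = 0.189), −0.652 (adjusted p = 0.983) and 0.032 (adjusted p = 1) in the 3 populations, and Lyz2 had 0.247 (adjusted p = 0.411), 0.346 (adjusted p = 0.491) and 0.117 (adjusted p = 1). Mpo had −1.103, −0.625 and 0.123, Elane −1.035, 0.483 and −0.011, and Ctsg −0.737, −0.388 and −0.093, so in CD150hi HSC 4 of the 5 estimates were below 0. In WT CD150hi HSC, replicate 1 was at 19.7 FPKM for Mpo, 19.1 for Elane and 5.57 for Ctsg. The next highest WT library there, replicate 5, was at 1.38, 1.59 and 1.11. By genotype none of the markers of other cells was called in any population, and those outside this list with an unadjusted p under 0.05 were Hba-a1 in CD150lo HSC (0.736, adjusted p = 0.369) and Cdh5 in CD150neg MPP (0.582, adjusted p = 1). The erythroid list summed to 3.5 to 26.3 FPKM with Hbb-b1 the most abundant, the B cell list to 6.2 to 32.2 with Cd79b, the T cell list to 0.285 to 4.92 with Cd4, the megakaryocyte list to 13.1 to 43.1 with Pf4, and the stroma and endothelium list to 0.00533 to 1.83 with Cdh5. None of these markers was at 0 in all 29 libraries, and the median was 0 for 1 erythroid, 2 T cell and 1 megakaryocyte marker.

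WT replicate 3 also stood apart. Xist, the RNA of the inactive X chromosome, was at 303, 234 and 319 FPKM in its CD150hi, CD150lo and CD150neg libraries, against 0.0237 to 0.47 in every other library. The sum of Xist with the Y chromosome genes Ddx3y, Eif2s3y, Kdm5d and Uty was also 303, 234 and 319 in these libraries. The Y genes thus added almost nothing there. In every other library this sum was at least 51.6, with Xist at most 0.47. WT replicate 3 therefore has a female profile and all other mice a male one, so sex is not balanced between the genotypes. The labels do not give the sex of the mice. Results for Orc5 are therefore given also without the libraries of WT replicate 1 and without those of WT replicate 3.

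The first question was how far the deletion lowers Orc5, the subunit gene that lies inside it. Orc5 was lower in 5A3+/del mice in all 3 populations, at 45.9% of the WT mean in CD150hi HSC, 39.9% of it in CD150lo HSC and 45.8% of it in CD150neg MPP. It was the single ORC gene whose genotype difference passed the test, in any population. This call comes from the fit to all 29 libraries, and with limma fitted to the 2 groups compared alone it was lost in all 3 populations (adjusted p = 0.386, 0.162 and 0.0722). In that setting 0 of 15409 genes were called in each population. The Orc5 protein is an ATP-binding subunit of the ORC core, and it stays assembled with Orc2, Orc3 and Orc4 through the cell cycle.

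The gene (ENSMUSG00000029012) lies on the minus strand at chr5:21992303-22056247 in mm9 and has 16 exon blocks with 2825 bp of exon. In CD150hi HSC, replicates 1 to 5 of WT had Orc5 levels of 14.3, 9.89, 7.87, 10.5 and 6.8 normalized FPKM, and those of 5A3+/del had 4.17, 3.81, 4.63, 3.9 and 6.11. The genotypes did not overlap, although the highest 5A3+/del library and the lowest WT library, both replicate 5, lay close together. The means were 9.87 ± 2.88 (SD, n = 5) for WT and 4.52 ± 0.943 (n = 5) for 5A3+/del. The log2 fold change was −0.95 (SE 0.161, 95% confidence interval −1.28 to −0.62, limma adjusted p = 0.00941), and all 5 5A3+/del libraries were below all 5 WT libraries. The share of all genes whose genotypes separate in this way is not given here. Of 15409 genes tested here, 24 (0.156%) were called at an adjusted p under 0.05, 5 higher and 19 lower.

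In CD150lo HSC, Orc5 was at 9.81, 8.65, 11.8, 12.1 and 11.6 normalized FPKM in WT replicates 1 to 5 and at 3.59, 4.31, 4.52, 2.93 and 6.2 in 5A3+/del. Every 5A3+/del library lay below every WT library, and 5A3+/del replicate 5 was again the highest of its group. The means were 10.8 ± 1.51 (SD, n = 5) and 4.31 ± 1.23 (n = 5). This was a log2 fold change of −1.17 (SE 0.161, interval −1.51 to −0.84, limma adjusted p = 0.00147). In this comparison 5 of 15409 genes (0.0324%) were called, 1 higher and 4 lower.

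In CD150neg MPP, WT replicates 1 to 5 had Orc5 levels of 10.7, 8.93, 9.0, 9.8 and 10.9 normalized FPKM, and 5A3+/del replicates 1 to 4 had 4.01, 4.39, 4.87 and 4.77. The genotypes were far apart, and the spread within each was small. The means were 9.85 ± 0.909 (SD, n = 5) and 4.51 ± 0.393 (n = 4). On the log2 scale the fold change was −0.98 (SE 0.171, interval −1.33 to −0.63, limma adjusted p = 0.0157), with 7 of 15409 genes (0.0454%) called, 1 higher and 6 lower. In bulk samples like these, fewer cells that express a gene and less RNA per cell cannot be told apart.

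**Figure D1:**
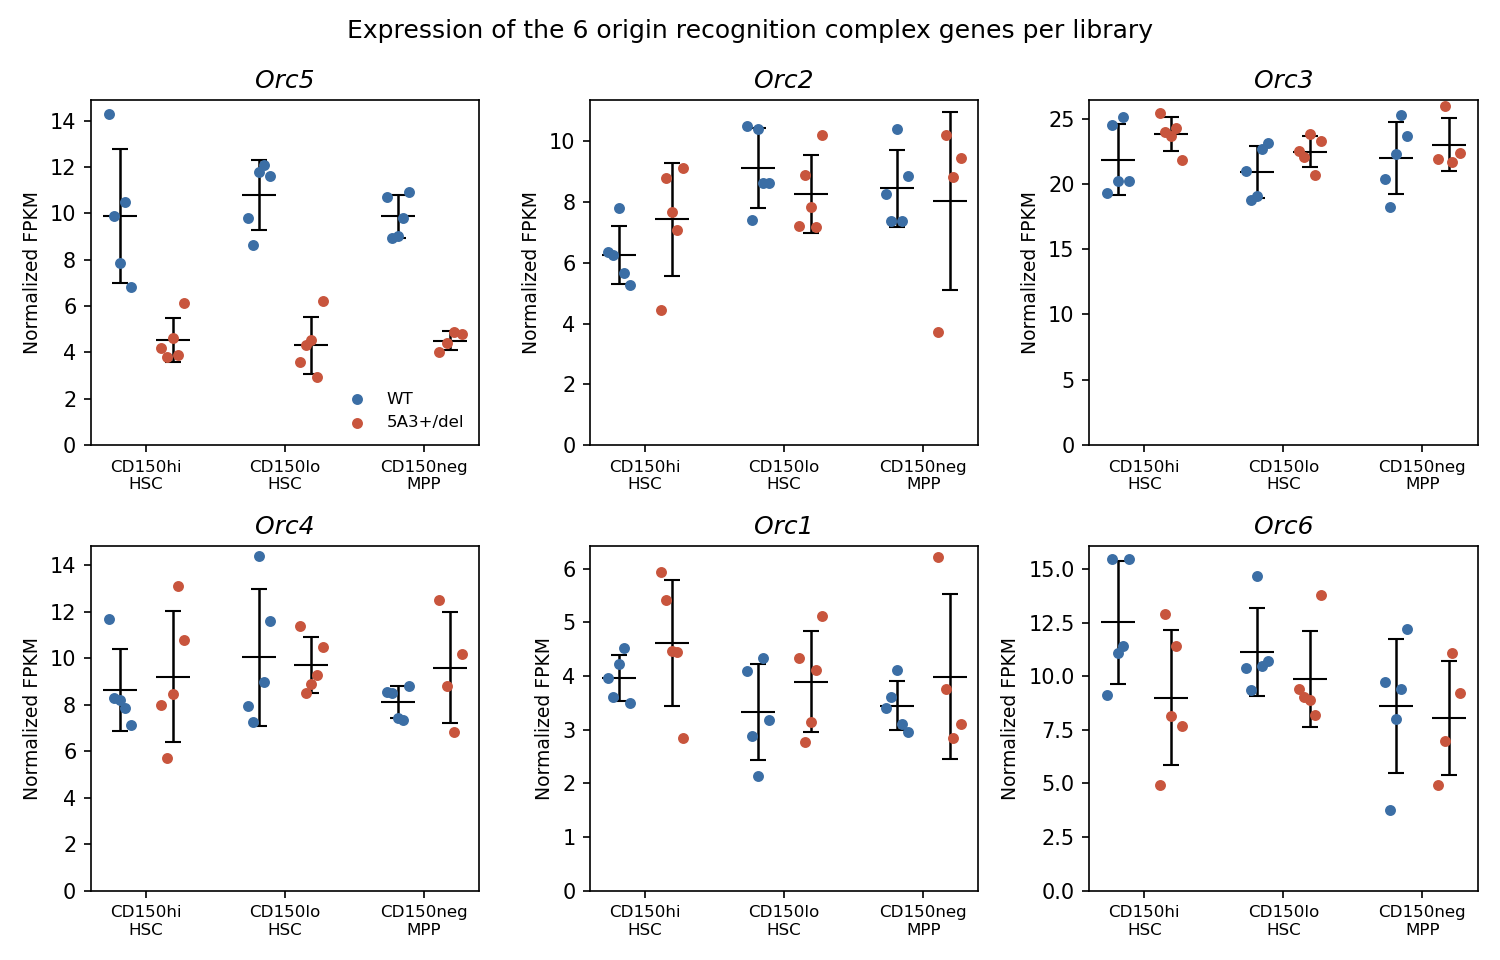
Normalized FPKM of the 6 ORC genes (y axis) in each library of the 3 sorted populations (x axis), with WT in blue and 5A3+/del in red. Points are libraries, long bars are means and error bars are SD. For Orc5, 5A3+/del libraries lie at 2.93 to 6.2 and WT libraries at 6.8 to 14.3.

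Averaged over the populations of a mouse, Orc5 was at 11.6, 9.16, 9.57, 10.8 and 9.75 normalized FPKM in WT mice 1 to 5 and at 3.92, 4.17, 4.67, 3.87 and 6.15 in 5A3+/del mice 1 to 5. The mean of 5A3+/del mouse 5 rests on 2 populations. This mouse had the highest Orc5 level of its genotype in both, and every WT mouse lay above it.

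Without the libraries of WT replicate 1, the log2 fold change of Orc5 was −0.819 in CD150hi HSC (limma adjusted p = 0.0435), −1.20 in CD150lo HSC (adjusted p = 0.00168) and −0.948 in CD150neg MPP (adjusted p = 0.0282). Without those of WT replicate 3 it was −1.015 (adjusted p = 0.0326), −1.139 (adjusted p = 0.00948) and −1.005 (adjusted p = 0.0467). Leaving out each mouse in turn gave adjusted p-values of 0.00324 to 0.0559, 0.000172 to 0.0208 and 0.00489 to 0.124 in the 3 populations, with the fold change between −1.29 and −0.82 throughout. The call was lost in CD150hi HSC without WT replicate 4 (log2 fold change −0.925, adjusted p = 0.0541) or 5A3+/del replicate 2 (−0.907, adjusted p = 0.0559). It was lost in CD150neg MPP without WT replicate 4 (−0.98, adjusted p = 0.065), WT replicate 5 (−0.95, adjusted p = 0.0562) or 5A3+/del replicate 1 (−0.93, adjusted p = 0.122), 2 (−0.97, adjusted p = 0.103) or 3 (−1.01, adjusted p = 0.124). The part that the granulocyte markers, with the higher median sum in WT CD150hi HSC, have in the Orc5 difference was not tested beyond leaving out WT replicate 1.

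The second question was whether the genotype difference of Orc5 depended on the population. The difference in CD150lo HSC minus that in CD150hi HSC was −0.22 on the log2 scale (SE 0.228, interval −0.69 to 0.25, limma adjusted p = 0.999). The CD150neg MPP difference minus the CD150lo HSC difference was 0.20 (SE 0.235, interval −0.29 to 0.68, adjusted p = 0.997), and the CD150neg MPP difference minus the CD150hi HSC difference was −0.02 (SE 0.235, interval −0.51 to 0.46, adjusted p = 0.988). These intervals span 0 and leave room for differences between populations from −0.69 to 0.68. Over the 6 ORC genes and 3 pairs of populations, limma called 0 of 18 interactions, and 0 had an unadjusted p under 0.05. Among all 15409 genes 0 (0.0%) were called in each of these pairs, with 614, 771 and 1227 genes at an unadjusted p under 0.05.

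Orc5 was set beside 6 other expressed genes of the deleted interval: Mll5, Armc10, Psmc2, Dnajc2, Pmpcb and Napepld. The median level of these 6 was 53.0% of the WT mean in CD150hi HSC, with a range from 47.4% to 60.9%. It was 52.7% in CD150lo HSC, with a range from 31.9% to 60.6%, and 47.0% in CD150neg MPP, with a range from 15.5% to 64.0%. By this measure Orc5, at 45.9%, was below all 6 in CD150hi HSC, and in the other populations it lay within their range, with Napepld lower in both and Dnajc2 (44.3%) also lower in CD150neg MPP. Napepld was low, with 0 to 193 fragments in the 5A3+/del libraries. The limma estimates gave another order, with Orc5 below all 6 in CD150hi HSC (−0.952, next Psmc2 at −0.93) and CD150lo HSC (−1.173, next Napepld at −0.943), and in CD150neg MPP (−0.977) above Napepld (−1.209), Dnajc2 (−1.106), Armc10 (−1.035) and Mll5 (−0.979). That Orc5 differs from its neighbours in this respect was not tested. Limma called 4 of the 6 in CD150hi HSC and 3 of the 6 in each of the other populations, and all 6 had an unadjusted p under 0.05 in each population. Of all genes, 0.156%, 0.0324% and 0.0454% were called and 13.1%, 6.87% and 4.27% had such a p. Like those of Orc5, the genotypes of Mll5, Dnajc2 and Pmpcb did not overlap in any population.

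**Figure D2:**
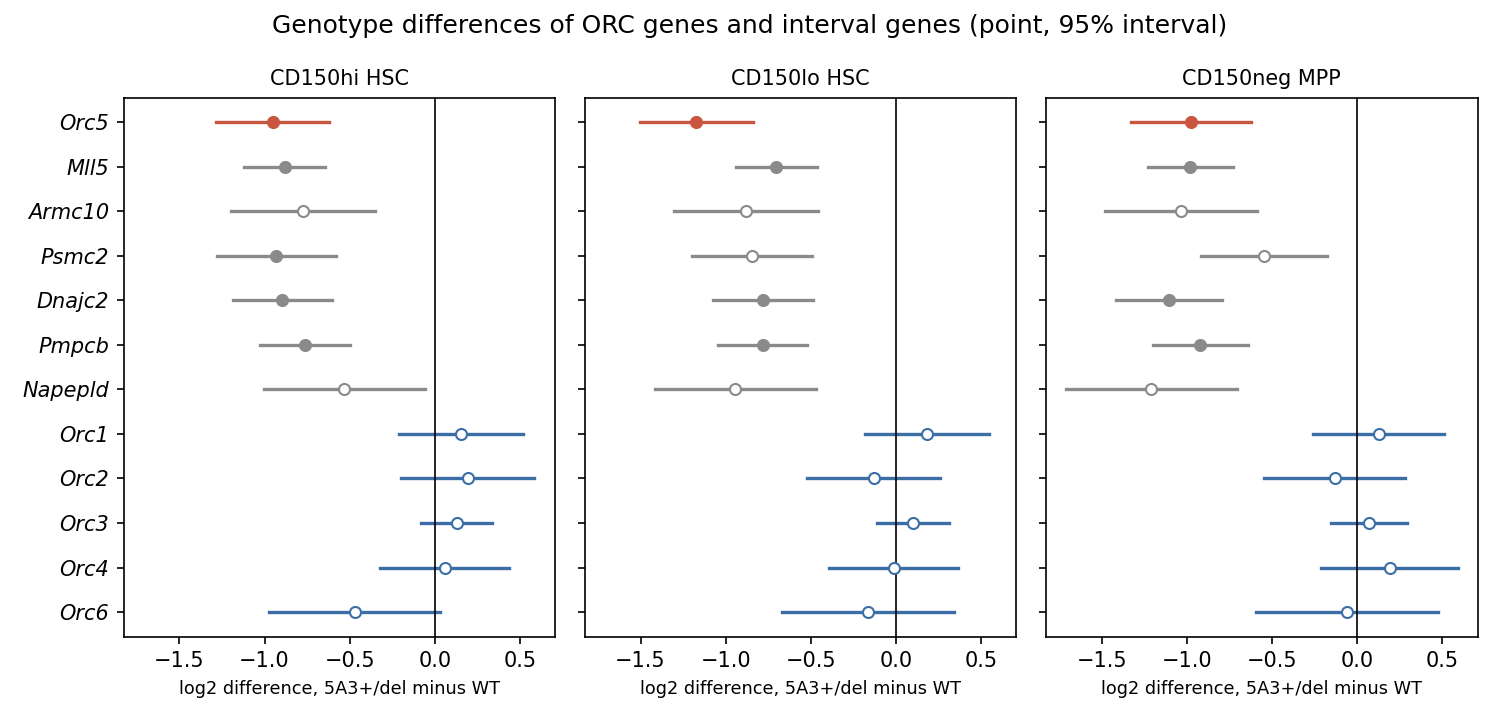
Log2 difference between 5A3+/del and WT (x axis) for Orc5 (red), 6 other genes of the deleted interval (gray) and the 5 other ORC genes (blue), in 3 panels for CD150hi HSC, CD150lo HSC and CD150neg MPP. Points are limma estimates, lines are 95% confidence intervals and filled points have an adjusted p under 0.05; Orc5 sits at −0.95, −1.17 and −0.98, and the intervals of the other ORC genes cross 0.

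The other question about genotype was whether the partners of Orc5, which keep both copies, differed as well. None of the 5 was called in any population by limma, beside 0.156%, 0.0324% and 0.0454% of all genes, and 0 of 5 had an unadjusted p under 0.05 in each, beside 13.1%, 6.87% and 4.27%. Their median log2 fold change was 0.127 in CD150hi HSC, where that of all genes tested was 0.004. In CD150lo HSC it was −0.013 beside 0.011 for all genes, and in CD150neg MPP 0.07 beside −0.001. The median level was 109%, 96.6% and 105% of the WT mean in the 3 populations, with single genes between 71.9% and 119%.

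Orc2, Orc3 and Orc4 form the rest of the ORC core. Orc3 was the most abundant ORC transcript per length in every group. In CD150hi HSC its level was 19.3, 24.5, 20.2, 25.1 and 20.2 normalized FPKM in WT replicates 1 to 5 and 25.4, 24.0, 23.7, 24.3 and 21.8 in 5A3+/del. In CD150lo HSC Orc3 was at 21.0, 18.8, 19.1, 22.7 and 23.1 in WT and at 22.5, 22.1, 23.8, 20.7 and 23.3 in 5A3+/del. In CD150neg MPP Orc3 was at 20.4, 18.2, 22.3, 25.3 and 23.7 in WT and at 21.9, 26.0, 21.7 and 22.4 in 5A3+/del. The genotypes overlapped in all 3 populations, and Orc3 had the smallest SE of the 6 genes. Its log2 fold change was 0.13 (SE 0.102, interval −0.08 to 0.34), 0.10 (SE 0.102, −0.11 to 0.31) and 0.07 (SE 0.108, −0.15 to 0.29), so a loss like that of Orc5 lay outside these intervals.

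Orc2, which also takes part in the core, had levels of 6.34, 6.25, 7.79, 5.65 and 5.27 normalized FPKM in WT CD150hi HSC and 4.46, 8.8, 7.67, 7.09 and 9.12 in 5A3+/del. In CD150lo HSC Orc2 was at 10.5, 7.42, 10.4, 8.63 and 8.63 in WT and at 7.2, 8.88, 7.84, 7.18 and 10.2 in 5A3+/del. In CD150neg MPP Orc2 was at 8.26, 7.37, 10.4, 7.37 and 8.85 in WT and at 3.71, 10.2, 8.81 and 9.44 in 5A3+/del. The genotypes overlapped, and replicate 1 of 5A3+/del was the lowest of its group in both CD150hi HSC and CD150neg MPP. Orc2 had log2 fold changes of 0.19 (SE 0.19, interval −0.20 to 0.58), −0.13 (SE 0.19, −0.52 to 0.26) and −0.13 (SE 0.202, −0.55 to 0.28). Without 5A3+/del replicate 1 the value in CD150neg MPP was 0.16, so the sign there rests on that mouse.

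Orc4, an ATP-binding subunit like Orc5, was at 11.7, 8.27, 8.21, 7.86 and 7.13 normalized FPKM in WT CD150hi HSC and at 7.97, 5.7, 8.48, 13.1 and 10.8 in 5A3+/del. In CD150lo HSC Orc4 was at 7.94, 7.26, 14.4, 9.0 and 11.6 in WT and at 11.4, 8.49, 8.88, 9.28 and 10.5 in 5A3+/del. In CD150neg MPP Orc4 was at 8.54, 8.49, 7.44, 7.35 and 8.8 in WT and at 12.5, 8.82, 6.83 and 10.2 in 5A3+/del. The genotypes overlapped in each population. Orc4 had log2 fold changes of 0.06 (SE 0.184, interval −0.32 to 0.44), −0.01 (SE 0.184, −0.39 to 0.36) and 0.19 (SE 0.195, −0.21 to 0.59), and in CD150hi HSC and CD150lo HSC its sign changed when single mice were left out, from −0.07 to 0.20 and from −0.11 to 0.12.

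Orc1 is the ATP-binding subunit whose level changes most through the cell cycle in mammals, and its gene is a known target of E2F factors. It had levels of 3.96, 3.6, 4.23, 4.53 and 3.49 normalized FPKM in WT CD150hi HSC and 5.93, 5.42, 4.47, 4.44 and 2.85 in 5A3+/del. In CD150lo HSC Orc1 was at 4.09, 2.89, 2.14, 4.34 and 3.18 in WT and at 4.34, 2.76, 3.14, 4.12 and 5.11 in 5A3+/del. In CD150neg MPP Orc1 was at 3.41, 3.61, 4.12, 3.11 and 2.96 in WT and at 6.22, 3.75, 2.85 and 3.11 in 5A3+/del. The genotypes overlapped, and in 2 of the 3 populations the highest and the lowest library were both from 5A3+/del mice. Orc1 had log2 fold changes of 0.16 (SE 0.177, interval −0.21 to 0.52), 0.18 (SE 0.177, −0.18 to 0.55) and 0.13 (SE 0.188, −0.26 to 0.51), and without 5A3+/del replicate 1 it was −0.07 in CD150neg MPP.

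Orc6, the most divergent subunit and the one most loosely attached to the core, was at 9.11, 15.5, 11.1, 11.4 and 15.5 normalized FPKM in WT CD150hi HSC and at 4.94, 12.9, 8.14, 11.4 and 7.66 in 5A3+/del. In CD150lo HSC Orc6 was at 10.4, 9.36, 14.7, 10.5 and 10.7 in WT and at 9.43, 9.06, 8.9, 8.19 and 13.8 in 5A3+/del. In CD150neg MPP Orc6 was at 9.74, 3.74, 7.99, 9.4 and 12.2 in WT and at 4.94, 6.98, 11.1 and 9.23 in 5A3+/del. The genotypes overlapped in each population, and in CD150hi HSC 3 of the 5 5A3+/del libraries were below the lowest WT library. Its log2 fold change there was −0.47 (SE 0.245, interval −0.98 to 0.03, limma adjusted p = 0.42), the lowest among the 5 partners, with a mean level of 71.9% of WT, and it ran from −0.606 to −0.298 with each mouse left out. It was −0.17 (SE 0.245, −0.67 to 0.34) in CD150lo HSC and −0.06 (SE 0.26, −0.60 to 0.47) in CD150neg MPP, where its sign changed without WT replicate 5 or 5A3+/del replicate 1.

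Because FPKM is a value per length, the subunit transcripts can be ranked within a group. In WT CD150hi HSC the mean levels ran from Orc3 (21.9 ± 2.71 normalized FPKM, SD, n = 5) through Orc6 (12.5 ± 2.84), Orc5 (9.87 ± 2.88), Orc4 (8.63 ± 1.78) and Orc2 (6.26 ± 0.961) to Orc1 (3.96 ± 0.433). The libraries of Orc3 lay above those of Orc6, and those of Orc1 lay below those of Orc2, whereas each pair of neighbours between Orc6 and Orc2 overlapped. The order was the same in WT CD150lo HSC, where Orc5 (10.8 ± 1.51, n = 5) again followed Orc6 (11.1 ± 2.06). In WT CD150neg MPP Orc5 (9.85 ± 0.909, n = 5) came next after Orc3 (22 ± 2.77), followed by Orc6 (8.62 ± 3.13), Orc2 (8.45 ± 1.25), Orc4 (8.12 ± 0.676) and Orc1 (3.44 ± 0.454), and again the neighbours from Orc5 to Orc4 overlapped.

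In 5A3+/del mice Orc5 moved to the lower end of this order. In CD150hi HSC it was the lowest of the 6, at 4.52 ± 0.943 normalized FPKM (SD, n = 5) beside Orc1 at 4.62 ± 1.18. In CD150lo HSC it was at 4.31 ± 1.23 (n = 5), between Orc2 (8.26 ± 1.29) and Orc1 (3.9 ± 0.948), and in CD150neg MPP at 4.51 ± 0.393 (n = 4), between Orc2 (8.03 ± 2.94) and Orc1 (3.98 ± 1.53). The Orc5 libraries overlapped those of Orc1 in all 3 populations, and they lay below all Orc2 libraries in CD150lo HSC alone. Among the 15409 genes tested, the mean log2 level over the 29 libraries was at percentile 39.8 for Orc1, 55.6 for Orc5, 59.5 for Orc2, 64.0 for Orc4, 65.8 for Orc6 and 86.7 for Orc3.

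The balance between Orc5 and the rest of the core was described by the level of Orc5 divided by the mean level of Orc2, Orc3 and Orc4 in the same library. In CD150hi HSC this ratio was 1.15, 0.762, 0.652, 0.818 and 0.625 in WT replicates 1 to 5 and 0.331, 0.297, 0.349, 0.263 and 0.439 in 5A3+/del. In CD150lo HSC it was 0.745, 0.775, 0.809, 0.903 and 0.8 in WT and 0.262, 0.328, 0.335, 0.237 and 0.423 in 5A3+/del. In CD150neg MPP it was 0.861, 0.786, 0.673, 0.735 and 0.789 in WT and 0.315, 0.293, 0.391 and 0.34 in 5A3+/del. The genotypes did not overlap in any population, and WT replicate 1 had the highest ratio of its group in CD150hi HSC and in CD150neg MPP. The mean ratio was 0.8 ± 0.208 (SD, n = 5) and 0.336 ± 0.0664 (n = 5), then 0.806 ± 0.0598 (n = 5) and 0.317 ± 0.0725 (n = 5), then 0.769 ± 0.07 (n = 5) and 0.335 ± 0.0421 (n = 4), in WT and 5A3+/del of the 3 populations. No test was made of this ratio, since it is a score over the members.

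As a share of the summed FPKM of the 6 genes, Orc5 made up 15.5% ± 4.0 (SD, n = 5) in CD150hi HSC of WT mice and 7.76% ± 1.77 (n = 5) in those of 5A3+/del mice. The share was 16.5% ± 1.01 (n = 5) and 7.27% ± 1.38 (n = 5) in CD150lo HSC, and 16.4% ± 1.26 (n = 5) and 7.89% ± 0.611 (n = 4) in CD150neg MPP. In WT and 5A3+/del, in this order, Orc3 made up 34.6% and 40.9% in CD150hi HSC, 32.2% and 38.6% in CD150lo HSC, and 36.3% and 40.2% in CD150neg MPP. The share of Orc6 was 19.9% and 15.1%, then 17.0% and 16.7%, then 13.9% and 14.0% in the same order. Shares add up to a fixed whole and are not independent of each other. The summed level was 63.1 ± 4.08 (n = 5) and 58.6 ± 4.22 (n = 5) normalized FPKM in CD150hi HSC, 65.4 ± 6.92 (n = 5) and 58.5 ± 6.35 (n = 5) in CD150lo HSC, and 60.5 ± 6.21 (n = 5) and 57.2 ± 3.11 (n = 4) in CD150neg MPP.

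The populations were compared next, as the mean of both genotypes, to ask whether ORC transcripts differ between HSC and MPP. Limma called 0 of 6 ORC genes for CD150lo HSC minus CD150hi HSC, where 1177 of 15409 genes (7.64%) were called, and Orc2 was the 1 gene at an unadjusted p under 0.05. It called 0 of 6 in CD150neg MPP minus CD150lo HSC, against 45 genes (0.292%) in all, and 0 of 6 in CD150neg MPP minus CD150hi HSC, against 2033 genes (13.2%) in all, with 0 ORC genes at an unadjusted p under 0.05 in either. Of all genes, 19.5%, 7.93% and 24.9% had such a p in the 3 comparisons. These 3 comparisons share libraries and are not independent of each other.

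For Orc2 the log2 fold change of CD150lo HSC over CD150hi HSC was 0.32 (SE 0.135, interval 0.04 to 0.60, limma adjusted p = 0.175). Its 5 libraries of WT CD150hi HSC were at 5.27 to 7.79 normalized FPKM and those of WT CD150lo HSC at 7.42 to 10.5, and in 5A3+/del they were at 4.46 to 9.12 and at 7.18 to 10.2, with overlap in both genotypes. The value was 0.481 in WT libraries alone and 0.157 in 5A3+/del libraries alone, and the interaction of −0.323 was not called. Orc6 had a lower estimate in CD150neg MPP, with a log2 fold change of −0.35 (SE 0.179, interval −0.71 to 0.02, adjusted p = 0.656) against CD150lo HSC and −0.34 (SE 0.179, interval −0.70 to 0.03, adjusted p = 0.248) against CD150hi HSC. Neither passed the threshold. Against CD150hi HSC it was −0.543 in WT libraries alone, −0.132 in 5A3+/del libraries alone and −0.424 to −0.18 with each mouse left out, and the interaction of 0.411 was not called. For Orc5 the differences were 0.04 (interval −0.20 to 0.27), −0.02 (−0.26 to 0.22) and 0.02 (−0.22 to 0.26) in CD150lo minus CD150hi, CD150neg minus CD150lo and CD150neg minus CD150hi. Orc1, Orc3 and Orc4 had differences between −0.21 and 0.14.

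The 6 transcripts did not vary as a block from library to library. After subtraction of group means, the Pearson correlation over the 29 libraries was highest for Orc2 with Orc6, at 0.512, and lowest for Orc1 with Orc2, at −0.429. For Orc5 it was 0.377 with Orc4, 0.326 with Orc2, 0.149 with Orc3, 0.13 with Orc6 and −0.196 with Orc1. These are descriptions of libraries that share mice, normalization and groups.

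The genes whose pattern was most like Orc5 over all 29 libraries were Pmpcb (Pearson r = 0.883), Dnajc2 (0.872), Mll5 (0.855), Psmc2 (0.826) and Armc10 (0.782), which are all genes of the deleted interval. Over the 15 WT libraries alone, the most alike were Dbt (0.797), Gm8898 (0.779), Gm2026 (0.773), C430048L16Rik (0.764) and Papd4 (0.759). After subtraction of group means over all 29 they were Mir199a-1 (0.696), Gm14817 (0.66), Gm17291 (0.659), Dbt (0.651) and 2310079F23Rik (0.644). Thus no gene of the interval was among the 5 most alike once genotype was held fixed. Dbt was in both of these lists, which share the 15 WT libraries and so are not independent.

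For the other ORC genes, likeness over the 29 libraries was lower than that of Orc5 to the interval genes. The most alike to Orc1 were Pnpla6 (r = 0.708), Plcb2 (0.699) and Iqck (0.692). Those of Orc2 were Gm4204 (0.74), Ssbp1 (0.728) and 0610009D07Rik (0.718), and those of Orc3 were Cirbp (0.704), Myef2 (0.677) and Adam11 (0.67). Orc4 was most like 4632434I11Rik (0.696), Mmd (0.691) and a gene that the table lists as 7-Mar (0.676), a symbol altered by spreadsheet software. Orc6 was most like Lamtor2 (0.766), Gm10146 (0.765) and Cdca8 (0.761), the last a subunit of the chromosomal passenger complex of mitosis.

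Other genes near Orc5 bear on how its fragments were assigned. The pseudogene Gm15421 overlaps 353 bp of Orc5 exon on the same strand and had 5 to 26 fragments per library, few beside the 216 to 1097 of Orc5. Mean normalized FPKM of Gm15421 for WT and 5A3+/del was 1.36 and 0.982 in CD150hi HSC, 1.57 and 0.791 in CD150lo HSC, and 1.02 and 0.776 in CD150neg MPP. The long noncoding RNA 6030443J06Rik, which starts at position 22056255 and is transcribed away from Orc5, was at 0.025 to 0.826 FPKM. Reln, Slc26a5 and Lhfpl3, the protein-coding genes on either side in the interval, reached at most 0.0322, 0.373 and 3.83 FPKM and did not pass the filter.

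Exons of other ORC genes overlap genes on the opposite strand, and how the authors' counting treated strand and shared reads is not given in the sources used here. Orc1 (chr4:108252028-108288633) shares 376 bp with Gm12743, Orc2 (chr1:58519615-58561953) shares 464 bp with Nif3l1, and Orc4 (chr2:48758344-48805797) shares 136 bp with Mbd5 and 446 bp with Acvr2a. For Orc3 (chr4:34518045-34562193) and Orc6 (chr8:87823531-87832177) the annotation of mm9 lists no such overlap.

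The sequence before the start of Orc5 is shown because this is the ORC gene that is present in a single copy in 5A3+/del mice. RefSeq promoter sequences (table build GRCm38.p6) were found for all 6 ORC genes, with 9 entries among 32851, and each matched 1 place in mm9. The start here is that of the RefSeq table. The Orc5 window of 250 bases before it had 63.6% GC and 19 CpG, and 91 of these bases lie in an exon of a processed transcript of Orc5 (22056010 to 22056247) in the mm9 annotation. Its 213 bases at chr5:22056194-22056406, minus strand, 5′ to 3′, are given with the motif TGACGTCA, known as the cAMP response element, in capitals. This motif, at 22056218 to 22056225, lies inside that exon and so within the annotated gene. The 37 bases nearest the start, annotated as UTR, are left out.
Orc5: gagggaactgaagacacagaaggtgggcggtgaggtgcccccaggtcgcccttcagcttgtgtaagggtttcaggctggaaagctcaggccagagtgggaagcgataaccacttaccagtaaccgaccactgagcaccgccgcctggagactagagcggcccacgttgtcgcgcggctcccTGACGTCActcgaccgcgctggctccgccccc

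The motifs searched on both strands were TGACGTCA, the E2F-type motifs TTTCGCGC, TTTGGCGC and TTTCCCGC, CCAAT, and the GC box GGGCGG. TGACGTCA is in 1.55% of all promoter windows of this length and, among the ORC genes, in that of Orc5 alone. TTTCGCGC is in 0.256% of all windows and in that of Orc1, and TTTCCCGC is in 0.895% and in that of Orc3, whereas TTTGGCGC, in 0.417% of windows, was found in none of the ORC windows. The commoner motifs CCAAT (33.8%) and GGGCGG (32.7%) occurred in several, with 2 places for GGGCGG in the Orc5 window. A match describes the letters of the window and is not a measured binding site.

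Genes that act with ORC in licensing and firing were taken from a list of 29, all of which are in the table. Of these, 28 passed the filter, and Recql4 did not. In the genotype comparison limma called 0 of 28 in each population, and 2, 0 and 1 had an unadjusted p under 0.05 in CD150hi HSC, CD150lo HSC and CD150neg MPP, where 13.1%, 6.87% and 4.27% of all genes did. The estimate was higher in 5A3+/del for 16, 21 and 18 genes of the 28, while 49.3%, 48% and 50.2% of all genes were lower. The median log2 fold change of the list was 0.018, 0.098 and 0.048, where all genes had 0.004, 0.011 and −0.001.

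The smallest p-values in CD150hi HSC were those of Mcm5, a helicase subunit, with a log2 fold change of −0.35 (SE 0.145, limma adjusted p = 0.303), and of Gmnn, the inhibitor of Cdt1, with −0.64 (SE 0.296, adjusted p = 0.36). In CD150lo HSC they were those of Mcmbp, which binds the helicase subunits, at 0.28 (adjusted p = 0.838), and Gins4, a GINS subunit, at 0.26 (adjusted p = 0.892). In CD150neg MPP they were those of Mcm10, which helps to activate the helicase, at 0.55 (SE 0.184, adjusted p = 1), and Gins4 at −0.31 (adjusted p = 1). Among interactions 0 of 28 were called in each pair of populations, and 0, 2 and 1 had an unadjusted p under 0.05, beside 614, 771 and 1227 of all genes. The smallest p-values were those of Gmnn (0.60) and Phip (−0.34) for CD150lo minus CD150hi, Gins4 (−0.57) and Mcm10 (0.53) for CD150neg minus CD150lo, and Mcm10 (0.70, adjusted p = 0.454) and Mcm5 (0.42) for CD150neg minus CD150hi.

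The licensing list was then read by population beside ORC, and a difference between the lists was not tested. In CD150lo HSC minus CD150hi HSC, 28 of 28 estimates were above 0, and 26 of 28 in WT libraries alone. Of all genes, 48.9% were below 0. The median of the list was 0.184 on the log2 scale, while the 6 ORC genes had a median of 0.024 and all genes 0.005. None of the 28 was called by limma, beside 7.64% of all genes, 5 had an unadjusted p under 0.05, beside 19.5% of all genes, and the smallest p-values were those of Mcm7 (0.30, SE 0.1, adjusted p = 0.0646) and Mcm6 (0.35, SE 0.127, adjusted p = 0.0983), both helicase subunits. With the mouse as a random block Mcm7 was called (0.303, adjusted p = 0.043). In CD150neg MPP minus CD150lo HSC, 14 of 28 were above 0, where 49.9% of all genes were below it. The median was 0.008 (ORC genes −0.06, all genes 0). Of the 28, 0 were called (0.292% of all genes) and 2 had an unadjusted p under 0.05 (7.93% of all genes). The smallest p-values were those of Kat7 (0.21, limma adjusted p = 0.482) and Rif1 (−0.25, adjusted p = 0.563).

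In CD150neg MPP minus CD150hi HSC, where 49.2% of all genes were below 0, 24 of the 28 were above it. Their median was 0.183, that of the 6 ORC genes −0.01 and that of all genes 0.005. Mcm10, Kat7 and Mcm6 were called, all 3 higher in CD150neg MPP, that is 3 of 28 beside 13.2% of all genes, and 7 had an unadjusted p under 0.05, beside 24.9% of all genes. Markers of other cells that passed the filter are given for the same contrasts. In CD150lo minus CD150hi none of them was called, and the log2 fold changes were 1.221 for Mpo, 1.494 for Elane, 0.249 for Ctsg, 1.141 for S100a8 and 0.097 for Lyz2, 0.485 for Hba-a1, 0.72 for Hbb-b1 and 0.24 for Klf1, −0.439 for Itga2b, 0.441 for Pf4 and 0.812 for Ppbp, 0.164 for Cd79a, −0.134 for Cd79b and 0.034 for Ebf1, 0.312 for Cd4 and 0.284 for Cdh5, with the smallest adjusted p for Ppbp (0.0778). In CD150neg minus CD150hi Mpo (1.496, adjusted p = 0.0298), Cd4 (0.814, adjusted p = 0.011) and Itga2b (−0.582, adjusted p = 0.0159) were called. The others were not, with 0.474 for Elane, −0.154 for Ctsg, −0.277 for S100a8 and −0.041 for Lyz2, 0.127 for Hba-a1, 0.484 for Hbb-b1 and 0.17 for Klf1, 0.082 for Pf4 and 0.682 for Ppbp, 0.427 for Cd79a, −0.158 for Cd79b and 0.168 for Ebf1, and 0.121 for Cdh5. Their part in the licensing differences was not tested. Mcm6 was at 27.7, 22.6, 45.3, 30.6 and 30.6 normalized FPKM in WT CD150hi HSC and at 38.2, 40.2, 47.6, 41.2 and 48.6 in WT CD150neg MPP. In 5A3+/del mice Mcm6 was at 20.8, 37.8, 38.9, 43.0 and 38 in CD150hi HSC and at 36.8, 47.4, 42.5 and 49.4 in CD150neg MPP. The populations overlapped in both genotypes, in WT through replicate 3 of CD150hi HSC. Mcm6 had a log2 fold change of 0.40 (SE 0.131, limma adjusted p = 0.0398).

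Kat7 (listed as Myst2), a histone acetyltransferase that binds Orc1 and aids licensing, was at 11.4, 16.7, 13.8, 15.6 and 15.3 normalized FPKM in WT CD150hi HSC and at 16.4, 17.1, 19.4, 18.2 and 15.6 in WT CD150neg MPP. In 5A3+/del mice Kat7 was at 14.4, 15.5, 16.2, 17.1 and 15.1 in CD150hi HSC and at 19.1, 24.5, 17.8 and 16.2 in CD150neg MPP. The populations overlapped in both genotypes, and the log2 fold change was 0.26 (SE 0.084, limma adjusted p = 0.0396). With the mouse as a fixed block Kat7 was not called, and the 3 called licensing genes were Dbf4, Mcm10 and Mcm6.

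Mcm10 was low in all libraries. Its level was 0.316, 1.69, 1.22, 0.618 and 1.7 normalized FPKM in WT CD150hi HSC and 0.527, 1.47, 1.66, 1.03 and 1.27 in WT CD150neg MPP. In 5A3+/del mice Mcm10 was at 0.511, 0.914, 0.701, 1.07 and 1.05 in CD150hi HSC and at 2.24, 2.52, 1.8 and 2.12 in CD150neg MPP. In WT the populations overlapped almost fully, and in 5A3+/del they did not overlap. The log2 fold change, as the mean of both genotypes, was 0.44 (SE 0.126, limma adjusted p = 0.0198), and the difference between the genotypes in this contrast, given above, did not pass the threshold. The count of 3 was 0 without WT replicate 4 or 5A3+/del replicate 2, and 1 (Mcm10) without WT replicate 1 or 5A3+/del replicate 3, and without WT replicate 3 it was 2 (Mcm10 and Mcm6). Without 5A3+/del replicate 1, whose CD150hi library has 13 fragments of Mcm10, the Mcm10 call was lost, and Mcm6 and Mcm7 were called. It was also 2 without WT replicate 2, WT replicate 5 or 5A3+/del replicate 4 (Mcm10 and Kat7) and without 5A3+/del replicate 5 (Mcm10 and Mcm6), so no mouse could be left out with all 3 calls kept. The count was 0 with limma fitted to the 2 populations compared alone, 0 in WT libraries alone and 1 in 5A3+/del libraries alone.

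**Figure D3:**
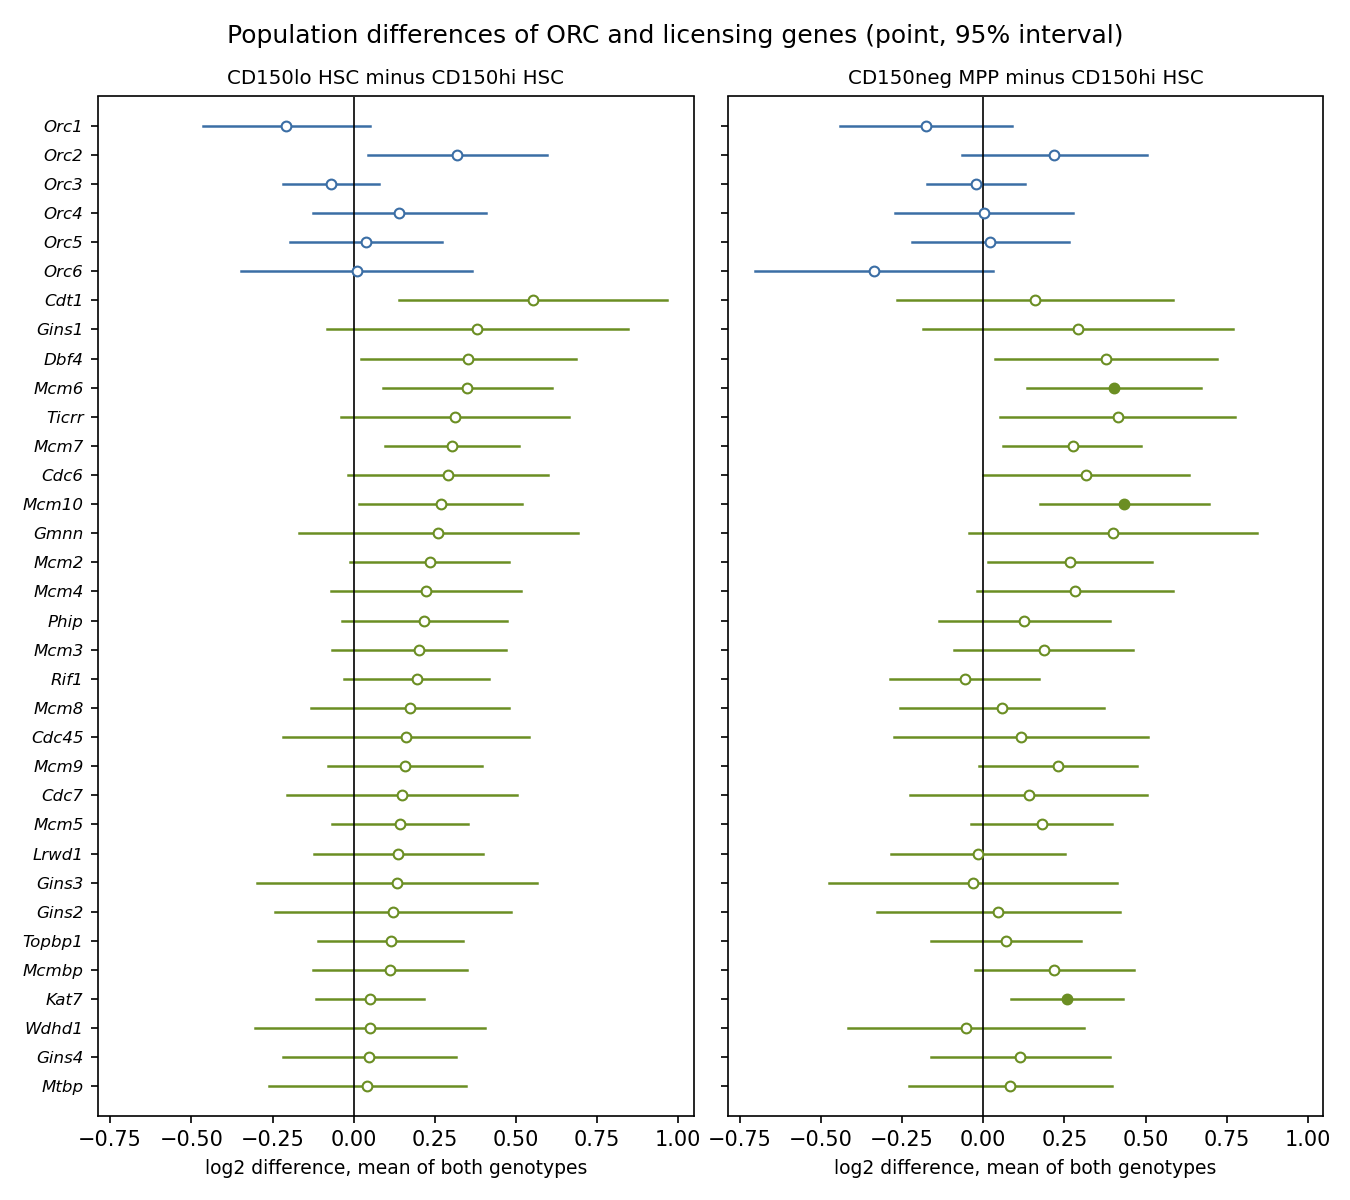
Log2 difference between populations (x axis), as the mean of both genotypes, for the 6 ORC genes (blue) and 28 licensing and firing genes (green), in CD150lo HSC minus CD150hi HSC and CD150neg MPP minus CD150hi HSC. Points are limma estimates, lines are 95% confidence intervals and filled points have an adjusted p under 0.05. ORC genes fall on both sides of 0, and 28 and 24 of the 28 licensing genes fall above it. Of all genes, 48.9% and 49.2% fall below it.

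A list of 15 proliferation genes was read beside these, all of which passed the filter. Limma called 0 of 15 in each genotype and each population comparison, with 1, 0 and 0 at an unadjusted p under 0.05 by genotype (13.1%, 6.87% and 4.27% of all genes). By population 4 in CD150lo minus CD150hi, 1 in CD150neg minus CD150lo and 4 in CD150neg minus CD150hi had such a p, where 19.5%, 7.93% and 24.9% of all genes did. In these 3 contrasts, 48.9%, 49.9% and 49.2% of all genes were below 0. The median of the 15 was 0.254, 0.026 and 0.17, with 13, 8 and 12 genes above 0. The smallest p-values were those of Rrm2 (0.492, adjusted p = 0.216) and Top2a (0.422, adjusted p = 0.245), then E2f1 (−0.369, adjusted p = 0.614) and Mki67 (0.205, adjusted p = 0.851), then Mki67 and Ccnb2 (1.058, adjusted p = 0.0829). Mki67, a marker of cycling cells, was at 10.2, 5.8, 27.2, 13.4 and 20.7 normalized FPKM in WT CD150hi HSC and at 18, 17.3, 22.2, 25.1 and 32.0 in WT CD150neg MPP. Its libraries overlapped, and the WT CD150hi HSC libraries were the more spread out. The log2 fold change of Mki67 in CD150neg MPP minus CD150hi HSC was 0.54 (SE 0.19, limma adjusted p = 0.0621), and that of Top2a, the topoisomerase of dividing cells, was 0.52 (SE 0.206, adjusted p = 0.103). Each mouse gave libraries to several populations, and in this contrast Mki67 was called with the mouse as a random block (0.538, adjusted p = 0.0417) and Top2a with the mouse as a fixed block (0.536, adjusted p = 0.0372).

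By genotype, Mki67 had log2 fold changes of 0.38 (SE 0.261), 0.27 (SE 0.261) and 0.11 (SE 0.277) and Top2a 0.01 (SE 0.283), 0.10 (SE 0.283) and 0.37 (SE 0.3) in CD150hi HSC, CD150lo HSC and CD150neg MPP. Ccnb2, a mitotic cyclin, had the smallest p of the list in CD150hi HSC, at 1.31 (SE 0.548, limma adjusted p = 0.304), and was at −0.456 (adjusted p = 0.961) in CD150lo HSC and at 1.187 (adjusted p = 1) in CD150neg MPP. Over the 29 libraries Ccnb2 ran from 1.44 to 144 normalized FPKM, with a median of 13.2 and an SD of 25.4. In CD150lo HSC the smallest p-values were those of Rrm2 (0.524, adjusted p = 0.841) and Aurkb (0.499, adjusted p = 0.86), and in CD150neg MPP those of Ccnb2 and Cdk1 (0.387, adjusted p = 1). Among interactions 0 of 15 were called in each pair of populations, and 1, 1 and 0 had an unadjusted p under 0.05, beside 614, 771 and 1227 of all genes. The smallest p-values were those of Ccnb2 (−1.763) and E2f1 (0.494) for CD150lo minus CD150hi, Ccnb2 (1.643) and Cdk1 (0.629) for CD150neg minus CD150lo, and Ccne1 (0.55) and Cdk1 (0.471) for CD150neg minus CD150hi. For the genotype comparisons, not the interactions, the median of the 15 was 0.12, 0.11 and 0.26, with the populations ordered as at the start of this paragraph. Protein levels of ORC, its loading on chromatin and DNA replication were not measured in these data.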

How the data were processed

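RNA of the sorted cells was amplified and sequenced with paired ends. The authors deposited FPKM per gene on mm9, not quantile normalized, and the submitters' notes name Bowtie 0.12.2 and HTSeq without their roles. Fragments per library were derived from steps in the low FPKM values and GENCODE exon lengths (98.2% to 98.6% of low values whole within 0.02). Amplified fragments are not independent molecules, so floors in fragments cover counting error only. The confidence intervals are those of the limma fit and rest on the spread between libraries.

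For genes that reached an FPKM of 1 in 4 or more libraries, log2(FPKM + 1) was quantile normalized and fitted with limma 3.58.1 (R 4.3.3) as 6 group means, two-sided, with Benjamini-Hochberg adjustment over 15409 genes and a threshold of 0.05. The steps were tested on simulated data.

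Libraries of the same mouse correlated, with group means removed, at a median of 0.079 (different mice −0.025). Those that share a number across genotypes had 0.034 (other numbers −0.013) and were not treated as pairs.

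Named are all ORC genes, 6 interval genes, the 5 or 3 genes most alike by Pearson correlation, Mki67 and Top2a, and, per list, up to 6 called genes with the smallest adjusted p or else the 2 with the smallest p. Members and lists were chosen with earlier results of these data known. Alternatives covered pseudocount, filter, normalization, variance trend, blocks, libraries in the fit and each mouse left out.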

Additional observations from a re-analysis of the deposited data

Results flagged for a closer look

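Within a group, a library was singled out where its gap to the nearest other library, divided by the range of the group, passed Dixon's 95% critical value for groups of its size. Of 42 groups examined, 4 passed, and chance flags about 1 in 20 groups. None of the 4 concerns Orc5.

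Orc3 was at 26.0 normalized FPKM in replicate 2 of 5A3+/del CD150neg MPP, far above the other 3 libraries at 21.7 to 22.4. Orc4 was at 11.7 in replicate 1 of WT CD150hi HSC, above the other 4 at 7.13 to 8.27. Orc6 was at 14.7 in replicate 3 of WT CD150lo HSC, above the other 4 at 9.36 to 10.7. In 5A3+/del CD150lo HSC, Orc6 was at 13.8 in replicate 5, above the other 4 at 8.19 to 9.43. The genotype differences of Orc3, Orc4 and Orc6 that include these libraries were not called with or without them.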

How the results depend on the processing

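The lower level of Orc5 in 5A3+/del mice kept its direction under all alternatives tried, with a log2 fold change between −1.34 and −0.82. Its call was kept with the other pseudocount, both other filters, both other normalizations, the variance trend and the mouse as a random block. It was lost when limma was fitted to the 2 groups compared alone, where fewer libraries estimate the spread (log2 fold change −0.952, −1.173 and −0.977, adjusted p = 0.386, 0.162 and 0.0722, in CD150hi HSC, CD150lo HSC and CD150neg MPP). It was lost as well with the replicate number as a paired block within these groups (−0.952, −1.173 and −0.944, adjusted p = 0.58, 0.57 and 0.813), although these numbers name different mice and the block leaves still fewer degrees of freedom. In both of these settings 0 of 15409 genes were called in each population. For Orc5 the limma adjusted p over the alternatives other than leaving out mice ranged from 0.00623 to 0.58, 0.000452 to 0.57 and 0.00935 to 0.813. Leaving out each mouse gave −1.065 to −0.819, −1.291 to −1.073 and −1.012 to −0.927 in the same order, and the mice whose absence ends a call are named with their values above. Orc5 as a percent of WT was 50.8% in CD150neg MPP from the back-transformed limma difference. All 3 alternative measures together, this one included, gave 45.4% to 51.7%, 39.2% to 44.4% and 45.2% to 50.8%, of which the ratio of back-transformed means was chosen after seeing the data.

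The count of called genes among the 5 other ORC genes by genotype, and among all 6 by population, was 0 under every alternative. Differences near 0 changed sign without a call. The Orc5 interaction of CD150neg MPP with CD150hi HSC ran from −0.129 to 0.119 with each mouse left out. Under no normalization, Orc3 in CD150neg minus CD150hi was 0.03, Orc5 in CD150neg minus CD150lo 0.033 and Orc6 in CD150lo minus CD150hi −0.001. With the stricter filter, Orc4 in CD150neg minus CD150hi was −0.005 and Orc6 in CD150lo minus CD150hi −0.002. In WT libraries only, Orc3 and Orc4 in CD150neg minus CD150hi were 0.006 and −0.064, and Orc6 in CD150lo minus CD150hi −0.144. In 5A3+/del libraries only, Orc5 was −0.072 in CD150lo minus CD150hi and 0.081 in CD150neg minus CD150lo. With the mouse as a fixed block, Orc5 in CD150neg minus CD150lo was 0.041, and with the replicate number as a paired block, Orc6 by genotype in CD150neg MPP was 0.074. With each mouse left out, genotype differences ran from −0.066 to 0.236 for Orc1, −0.259 to 0.156 for Orc2 and −0.295 to 0.124 for Orc6 in CD150neg MPP, and for Orc4 from −0.071 to 0.199 in CD150hi HSC and −0.108 to 0.117 in CD150lo HSC. In CD150neg minus CD150hi the ranges were −0.05 to 0.029 for Orc3, −0.078 to 0.062 for Orc4 and −0.051 to 0.073 for Orc5. In CD150neg minus CD150lo they were −0.051 to 0.086 for Orc1, −0.17 to 0.022 for Orc2 and −0.08 to 0.041 for Orc5, and in CD150lo minus CD150hi they were −0.029 to 0.119 for Orc5 and −0.072 to 0.088 for Orc6. The cause was not tested.

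Counts of called licensing and proliferation genes under alternatives were chosen after seeing the data. In CD150lo minus CD150hi, 1 licensing gene (Mcm7, adjusted p = 0.043) was called with the mouse as a random block. In CD150neg minus CD150hi, the 3 licensing genes became 0 with the 2 populations alone, 0 in WT libraries only and 1 in 5A3+/del libraries only, and 0 to 2 with each mouse left out. They became 4 with no normalization (Mcm7 joined), 2 with no filter (without Mcm6) and 2 with the stricter filter, which removes Mcm10 (at most 2.57 FPKM) before the test. With the mouse as a fixed block they were 3, but Dbf4 took the place of Kat7. Over all alternatives the count ran from 0 to 4. Proliferation genes called there were 1 with no normalization, 1 with median scaling, 1 with the mouse as a random block and 1 as a fixed block (Mki67, and Top2a in the last), and 0 to 1 with each mouse left out. Apart from the removal of Mcm10, the cause was not tested.

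Limits remain in the design. Orc5 was deleted together with its neighbours, groups hold 4 or 5 mice, and RNA was amplified before sequencing. FPKM hold no isoform or protein information, and strand handling is not given in the sources used here. Intervals of the partners leave room for differences such as −0.98 for Orc6 in CD150hi HSC. Mcm10 had 13 to 513 fragments per library.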
